A study of Mus musculus with 4 samples.

Results

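Scavenger receptors and C-type lectin receptors are the surface proteins by which a macrophage binds modified lipoproteins, microbial sugars, free hemoglobin complexes and remains of dead cells. Here 10 of their genes were followed in peritoneal macrophages, chosen by name from the 15298 genes listed. The 5 scavenger receptor genes were *Msr1*, *Marco*, *Cd163*, *Olr1* and *Scarb1*. The 5 C-type lectin receptor genes were *Mrc1*, *Clec7a*, *Clec4n*, *Clec4d* and *Clec4e*. All 10 were listed, and each had at least 10 reads in every library, so no member was lost to a filter on low values.

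RNA was sequenced from CD11b+ F4/80+ Ly6G- peritoneal cells, sorted from female BALB/c mice aged 6 weeks. Mice of the MCS condition received microcurrent stimulation of the abdomen (300 µA, 400 Hz, 15 min) at Zeitgeber time (ZT) 2, in the light period. Control mice were handled alike but got no current, and both were anesthetized with isoflurane. Cells were taken at ZT2, right after the stimulation, or later at ZT14, in the dark period, giving 4 libraries with 1 library per condition. Neither the labels nor the methods read here state how many mice were pooled into a library.

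Values are CPM, the authors' read counts scaled to a common library size, from which whole reads could be recovered. The libraries held between 8365590 and 9953243 reads, and 1 read was worth between 0.102 and 0.116 CPM. With 1 library per condition no comparison has a replicate check. The 95% intervals below are exact binomial intervals of the reads, which cover counting error only and compare the libraries, not groups of mice. In bulk samples, fewer cells of a type and less RNA per cell cannot be told apart.

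As background, scavenger receptors take up ligands without opsonins. Msr1 and Marco are class A receptors for modified lipoproteins, bacteria and particles, Scarb1 is the high-density lipoprotein receptor, Olr1 binds oxidized low-density lipoprotein, and Cd163 clears hemoglobin bound to haptoglobin. Among the lectin receptors, Mrc1 (CD206) internalizes mannosylated glycoproteins, Clec7a binds fungal β-glucan, Clec4n binds mannans, and Clec4d and Clec4e recognize mycobacterial glycolipids. Clec7a signals to the kinase Syk through its own tail, whereas Clec4n, Clec4d and Clec4e pair with the adaptor encoded by *Fcer1g*.

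Of the 10 genes, 6 lie on chromosome 6, here in GRCm38 coordinates. *Clec4n* (chr6:123229843-123247021, plus strand), *Clec4d* (chr6:123262111-123275265, plus strand) and *Clec4e* (chr6:123281789-123289870, minus strand) are neighbors, 15089 and 6523 bases apart. *Clec7a* (chr6:129461591-129472779, minus strand) and *Olr1* (chr6:129485244-129507165, minus strand) are separated by 12464 bases. *Cd163* (chr6:124304656-124330527, plus strand) lies 1014785 bases from *Clec4e*. The others are *Msr1* on chromosome 8 (39581685 to 39642673, minus strand), *Marco* on chromosome 1 (120474538 to 120505024, minus strand), *Scarb1* on chromosome 5 (125277087 to 125341094, minus strand) and *Mrc1* on chromosome 2 (14229392 to 14332057, plus strand). In the GENCODE annotation of this build *Clec7a* is typed as a polymorphic pseudogene, and the other 9 genes are protein coding. No transcript of another gene was near-identical to any of the 10 over 150 bases, so reads of these genes are not expected to be split with a copy.

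The 250 bases upstream of the start site were read from RefSeq (GRCm38.p6) for the 7 members that matched its promoter table. They are shown for *Cd163*, *Mrc1* and *Clec4d*, which were higher at ZT2 in control and MCS, and for *Clec4e* and *Clec7a*, whose time ratios differed between control and MCS by more than counting error. Those of *Cd163* and *Clec4d*, and of *Msr1*, which had no matched window, differed so too. Those of *Olr1* did on few reads (difference 0.94, 0.06 to 1.83). The windows of *Olr1* and *Marco* are not printed. Capitals mark each GAGGAA on either strand (TTCCTC on the strand shown), the core of sites bound by the macrophage factor PU.1.
*Cd163* (chr6:124304401-124304650, plus strand): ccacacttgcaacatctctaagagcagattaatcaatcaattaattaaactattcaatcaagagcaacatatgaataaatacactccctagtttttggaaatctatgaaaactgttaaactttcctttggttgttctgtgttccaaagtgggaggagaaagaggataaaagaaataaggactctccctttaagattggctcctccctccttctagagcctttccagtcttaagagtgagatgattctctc
*Mrc1* (chr2:14229164-14229413, plus strand): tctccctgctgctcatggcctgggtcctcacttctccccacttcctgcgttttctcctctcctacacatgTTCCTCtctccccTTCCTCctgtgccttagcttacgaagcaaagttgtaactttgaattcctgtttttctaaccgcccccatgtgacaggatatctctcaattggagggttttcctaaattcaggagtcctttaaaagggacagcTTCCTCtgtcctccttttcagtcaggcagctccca
*Clec4d* (chr6:123261857-123262106, plus strand): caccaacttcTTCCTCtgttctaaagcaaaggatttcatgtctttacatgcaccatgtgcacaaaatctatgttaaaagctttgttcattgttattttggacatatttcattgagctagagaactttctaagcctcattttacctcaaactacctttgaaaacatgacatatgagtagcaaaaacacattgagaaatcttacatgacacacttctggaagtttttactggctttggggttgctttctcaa
*Clec4e* (chr6:123289872-123290121, minus strand): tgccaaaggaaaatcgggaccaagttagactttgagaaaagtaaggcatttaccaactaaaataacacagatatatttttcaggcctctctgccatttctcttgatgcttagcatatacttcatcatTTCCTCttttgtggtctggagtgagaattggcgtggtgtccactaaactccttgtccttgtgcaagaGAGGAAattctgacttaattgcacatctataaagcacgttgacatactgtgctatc
*Clec7a* (chr6:129472780-129473029, minus strand): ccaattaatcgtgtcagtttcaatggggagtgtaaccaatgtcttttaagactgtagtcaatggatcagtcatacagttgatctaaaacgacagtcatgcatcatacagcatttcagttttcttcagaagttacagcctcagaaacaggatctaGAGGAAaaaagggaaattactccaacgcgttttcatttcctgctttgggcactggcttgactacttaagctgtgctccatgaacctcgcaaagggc
The PU.1 core was found in 6 of the 7 members' windows (*Clec4d*, *Clec4e*, *Clec7a*, *Marco*, *Mrc1* and *Olr1*, but not *Cd163*), and in 23.3% of 32851 mouse promoter windows of this length. The *Mrc1* window held it 3 times and the *Clec4e* window 2 times. The members' windows had a GC content of 35.2% (*Clec4d*) to 49.6% (*Mrc1*), against a median of 52.4% over all promoters. The shares of promoters given here were not matched for this. The clock motifs are rarer in promoters than the PU.1 core, so in 7 windows few or no matches would come from their shares alone. The E-box CACGTG (6.02% of promoters) and the D-box TTATGTAA (0.819%) were in none of the 7, and the core of the ROR element, AGGTCA (14% of promoters), was in the window of *Olr1* alone. The KLF core CACCC, in 52% of promoters, was in those of *Marco* and *Olr1*, and the AP-1 site TGAGTCA, in 4.46%, in that of *Olr1*. All motifs were searched on both strands, and in the printed windows only the PU.1 core occurred, so no matches of different motifs overlap there. The windows of *Marco* and *Olr1*, which held the other motifs found, are not among those printed. A match describes the letters only.

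Levels between genes were compared as CPM per kb of the longest coding transcript. *Msr1* was the highest with a mean of 132 CPM per kb (107 to 159 over the 4 libraries), followed by *Clec4d* with 101 (72.5 to 124). The ranges of these genes overlapped. Below them came *Mrc1* with 25.1 (18.1 to 32.3), *Clec7a* with 20.3 (16.1 to 24.6), *Clec4e* with 17.8 (15.4 to 21.6) and *Scarb1* with 13.9 (10.1 to 18.7), each overlapping its neighbor in this order. *Cd163* had 8.69 (4.44 to 13.3), overlapping *Scarb1*, and *Marco* 4.43 (3.54 to 5.88), overlapping *Cd163*. *Clec4n* with 2.02 (0.728 to 3.06) and *Olr1* with 1.3 (1.04 to 1.52) were the lowest, and their ranges overlapped each other but not that of *Marco*. The neighbors *Clec4d*, *Clec4e* and *Clec4n* on chromosome 6 had ranges that did not overlap.

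**Figure D1:**
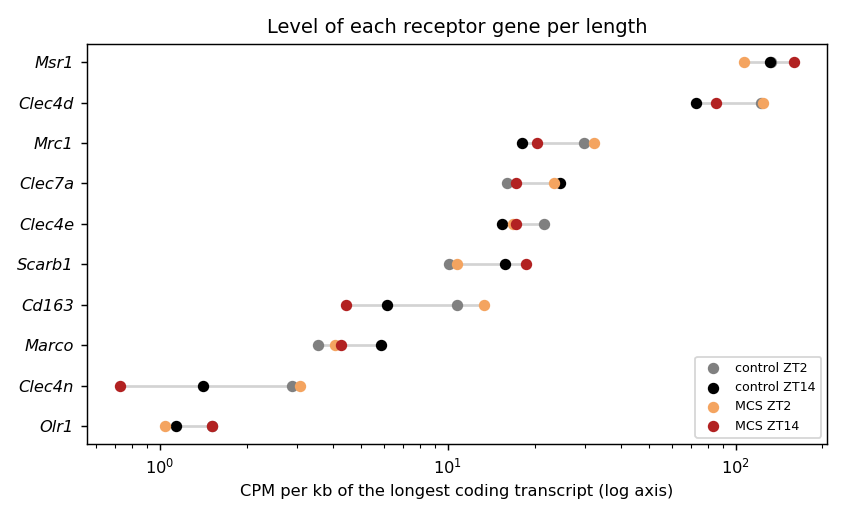
CPM per kb of the longest coding transcript (log axis) for each receptor gene, with 1 point per library (gray and black for control, orange and red for MCS) and a line over their range. *Msr1* and *Clec4d* lie above the other genes in every library, and *Clec4n* and *Olr1* at the bottom.

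Together the 10 genes took 982 CPM (control ZT2), 847 CPM (control ZT14), 925 CPM (MCS ZT2) and 966 CPM (MCS ZT14). *Msr1* alone made up 48.9%, 56%, 42.1% and 59.9% of these sums, in the same order. The 5 C-type lectin receptors summed to 416 and 437 CPM at ZT2 (control and MCS) and to 290 and 307 CPM at ZT14, so both ZT2 libraries were above both ZT14 libraries. The 5 scavenger receptors summed to 566 and 488 CPM at ZT2 and to 558 and 659 CPM at ZT14, an order set mostly by *Msr1*.

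**Figure D2:**
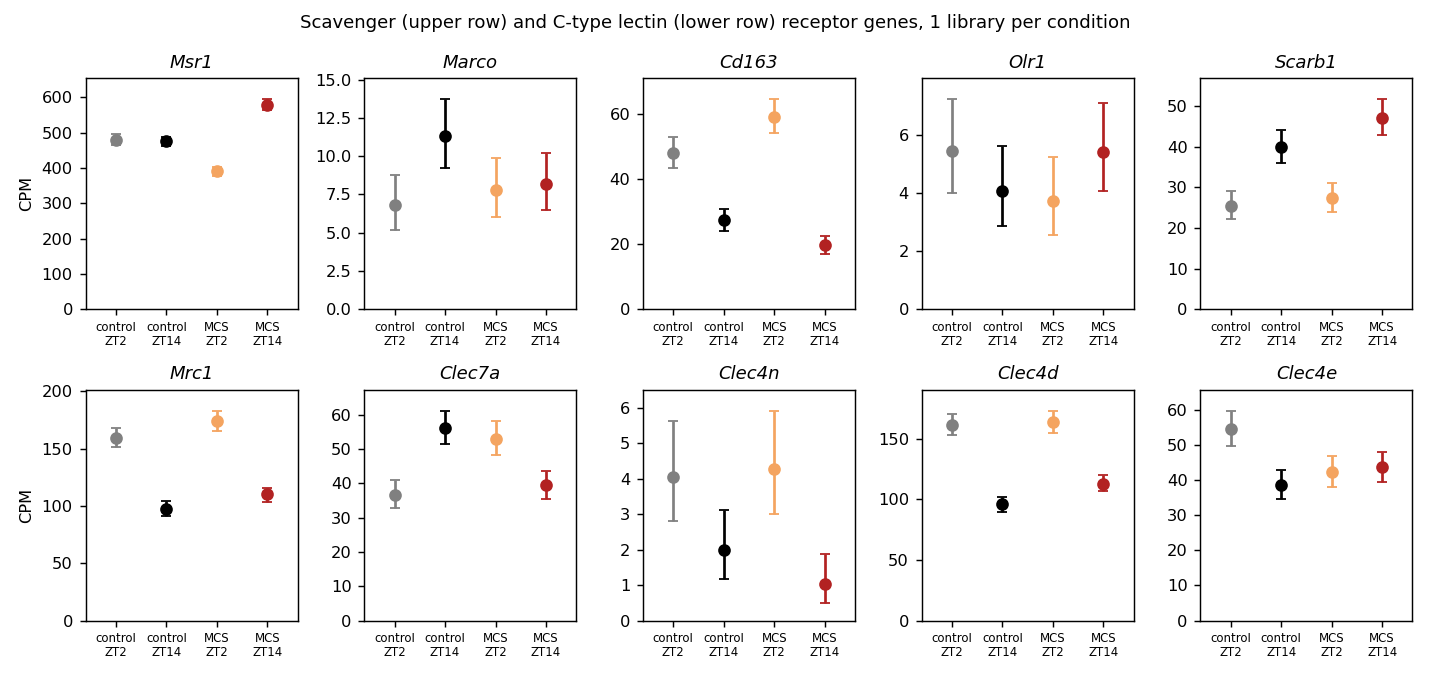
CPM of each gene in the 4 libraries (linear axes from 0, a scale of its own for each gene), with points for 1 library and bars for the exact 95% counting interval. *Mrc1*, *Clec4d*, *Cd163* and *Clec4n* are higher in both ZT2 libraries, *Scarb1* is lower in both, and *Clec7a* is high in control at ZT14 and MCS at ZT2.

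The first question was whether these receptors differ between the light and the dark period. At ZT2 against ZT14, *Cd163*, *Mrc1*, *Clec4d* and *Clec4n* were higher and *Scarb1* was lower in control and in MCS alike, each beyond counting error. These are separate pairs of libraries. Over all 12295 genes compared in both pairs, 10.9% passed both intervals in the same direction, against 5 of the 10 members.

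In control, *Cd163*, the hemoglobin scavenger, had 48.2 CPM (417 reads) at ZT2 and 27.4 CPM (249 reads) at ZT14. In MCS it had 59.3 CPM (511 reads) at ZT2 and 19.7 CPM (193 reads) at ZT14. Both ZT2 libraries were thus above both ZT14 libraries, with MCS at ZT2 the highest and MCS at ZT14 the lowest. The log2 ratio of ZT2 to ZT14 was 0.81 in control (0.59 to 1.05) and 1.58 in MCS (1.35 to 1.83). The summed markers of mast cells stood in the same order over the libraries, from 2472 CPM in the highest to 1067 CPM in the lowest. Those of small peritoneal macrophages (5293 to 4272 CPM) and dendritic cells (99.8 to 66.1 CPM) did too, and what such cells contributed was not tested.

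*Mrc1*, the mannose receptor, stood at 159 CPM at ZT2 and 97.3 CPM at ZT14 of the control condition, and at 174 and 110 CPM with MCS. Its log2 ratios of 0.71 (0.59 to 0.84) in control and 0.67 (0.55 to 0.78) in MCS were the closest pair among the members called for time. *Clec4d*, which forms a complex with the Clec4e protein, had 161 and 95.9 CPM in control and 164 and 113 CPM in MCS, again at ZT2 and ZT14. Its log2 ratio was 0.75 (0.63 to 0.88) in control and 0.53 (0.42 to 0.65) in MCS. For both genes, the 2 ZT2 libraries lay close together and above the ZT14 libraries.

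*Clec4n*, the mannan receptor, was low throughout, with 4.04 CPM (35 reads) at ZT2 and 1.98 CPM (18 reads) at ZT14 in control, and 4.29 CPM (37 reads) and 1.02 CPM (10 reads) in MCS. In control this was a fold of 1.99, just under the fold limit described below, with a log2 interval of 0.17 to 1.94. In MCS the log2 ratio was 1.97 (1.03 to 3.24). Its intervals are wide because few reads stand behind it.

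*Scarb1*, the high-density lipoprotein receptor, went the other way. It had 25.4 CPM (220 reads) at ZT2 and 39.9 CPM (363 reads) at ZT14 in control, and 27.3 CPM (235 reads) and 47.1 CPM (461 reads) in MCS. Both ZT14 libraries were above both ZT2 libraries. The log2 ratio was -0.65 in control (-0.90 to -0.40) and -0.79 in MCS (-1.02 to -0.56).

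The remaining genes did not keep a common direction beyond counting error. *Marco*, which binds bacteria and particles, had 6.81 CPM (59 reads) at ZT2 and 11.3 CPM (103 reads) at ZT14 in control, but 7.77 and 8.18 CPM in MCS. Its log2 ratio of ZT2 to ZT14 was -0.72 (-1.22 to -0.26) in control and within counting error in MCS (-0.07, -0.56 to 0.41). *Olr1* had between 3.71 and 5.43 CPM (32 to 53 reads), and none of its 4 ratios passed counting error.

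Counted over the members, the interval excluded no change in the direction of ZT2 for 5 genes in control (*Cd163*, *Mrc1*, *Clec4n*, *Clec4d* and *Clec4e*), where 13.6% of 12465 genes did so, and in the direction of ZT14 for 3 genes (*Marco*, *Scarb1* and *Clec7a*), against 15.9%. In MCS it did so for 5 genes higher at ZT2 (*Cd163*, *Mrc1*, *Clec7a*, *Clec4n* and *Clec4d*), where 21.9% of 12534 genes did, and for 2 lower (*Msr1* and *Scarb1*), against 22.2%. Deeply read genes pass a counting interval more easily. Of the 10900 genes with a mean CPM in the members' range (2.83 to 481), 30.7% passed in either direction in control and 46% in MCS. The median log2 ratio of the members was 0.45 in control and 0.19 in MCS, where that of all genes was -0.00 and 0.01. It was 0.71 and 0.53 for the C-type lectin receptors, and 0.02 and -0.53 for the scavenger receptors.

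By the criteria of the study's methods, a log2 ratio beyond 1 or -1 where the log2 mean CPM exceeds 0, no member was past the limit in control, where 3.61% of genes were. In MCS 2 of the 10 were, *Cd163* and *Clec4n*, both higher at ZT2. There 5.83% of all genes passed in either direction and 3.96% as higher at ZT2.

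A count test on the recovered reads, edgeR's quasi-likelihood test with additive terms for time and MCS, takes the 2 libraries of a time point as replicates once a common MCS effect is removed. It was chosen after the data were seen and has 1 residual degree of freedom. For time, *Cd163* rose at ZT2 by 1.20 on the log2 scale (edgeR adjusted p = 0.000327), *Mrc1* by 0.69 (edgeR adjusted p = 0.0176) and *Clec4d* by 0.64 (edgeR adjusted p = 0.0334). *Scarb1* fell by 0.72 (edgeR adjusted p = 0.0334). *Clec4n* missed the threshold with a log2 ratio of 1.5 (edgeR adjusted p = 0.0682, unadjusted 0.00169), and the other 5 members had edgeR adjusted p-values of 0.717 or above. Thus 3 of 10 members were called higher at ZT2, against 1.31% of 12404 genes, and 1 of 10 lower, against 0.871%.

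**Figure D3:**
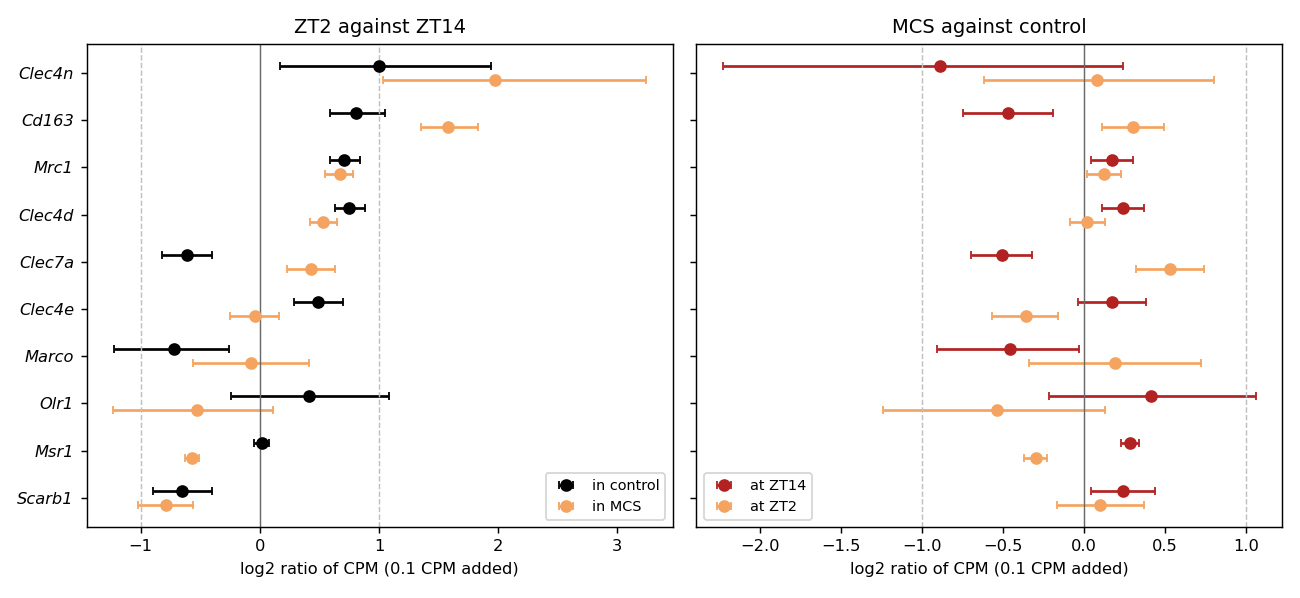
Log2 ratio of CPM (0.1 CPM added) for each gene, with bars for the 95% counting interval and dashed lines at ratios of 1 and -1. Left, ZT2 against ZT14 in control (dark) and MCS (orange), where *Clec7a* lies on opposite sides of 0, and right, MCS against control at ZT14 (red) and ZT2 (orange), where no gene passes the dashed lines.

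The second question was what MCS did to the receptors, right after the stimulation and at ZT14. No member passed the fold criteria in either comparison, where 3.4% of all genes did at ZT14 and 2.21% at ZT2. At ZT14 the interval excluded no change for 4 genes higher in MCS (*Msr1*, *Scarb1*, *Mrc1* and *Clec4d*), where 18.7% of 12368 genes did, and for 3 genes lower (*Marco*, *Cd163* and *Clec7a*), against 18.9%. At ZT2 it did so for 3 genes higher (*Cd163*, *Mrc1* and *Clec7a*), against 11.5% of 12612 genes, and for 2 lower (*Msr1* and *Clec4e*), against 11%. In the members' range of CPM, 39.3% of genes passed in either direction at ZT14 and 23.3% at ZT2. The median log2 ratio of the members was 0.17 at ZT14 and 0.09 at ZT2, where that of all genes was 0.00 in both.

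The edgeR count test called none of the 10 members for MCS, where it called 23 of 12404 genes (0.185%). All 10 had an edgeR adjusted p of 1, and none had an unadjusted p under 0.05, the smallest being 0.361 for *Scarb1*. This test takes the effect as the same at both time points, so effects in opposite directions cancel in it.

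Opposite directions, with both intervals excluding no change, were seen for *Msr1*, *Cd163* and *Clec7a*, 3 of the 10 members, against 10.2% of 12236 genes. *Mrc1* was the 1 member of 10 with both intervals on the same side, at a log2 ratio of 0.17 (0.04 to 0.30) at ZT14 and 0.12 (0.02 to 0.23) at ZT2, against 2.52% of genes. The difference between the MCS ratios at ZT14 and ZT2 equals the difference between the time ratios in control and MCS, so it was described once for each gene.

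*Msr1*, the class A scavenger receptor, had 480 CPM (4157 reads) at ZT2 and 475 CPM (4324 reads) at ZT14 in control. In MCS it had 390 CPM (3361 reads) at ZT2 and 578 CPM (5655 reads) at ZT14. The control libraries were within counting error of each other (0.02, -0.05 to 0.08), with the MCS libraries below and above them. The 7 macrophage markers summed to 25504 and 24666 CPM in control (ZT2 and ZT14) and to 24656 and 27221 CPM in MCS. Those of large peritoneal macrophages summed to 14244, 13572, 12767 and 15103 CPM, listed alike. Both sums thus ranked the libraries as *Msr1* did, and what this contributed was not tested. The MCS ratio of *Msr1* was 0.28 (0.23 to 0.34) at ZT14 and -0.30 (-0.37 to -0.23) at ZT2, a difference of 0.58 (0.50 to 0.67). When the libraries were scaled by the large peritoneal macrophage markers, these values were 0.21, -0.15 and 0.36, and the time ratio in control was -0.08.

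*Clec7a*, the β-glucan receptor, had 36.7 CPM (318 reads) at ZT2 and 56 CPM (510 reads) at ZT14 in control. In MCS the order was turned, with 53 CPM (457 reads) at ZT2 and 39.4 CPM (385 reads) at ZT14. The log2 ratio of ZT2 to ZT14 was -0.61 (-0.82 to -0.40) in control and 0.43 (0.23 to 0.63) in MCS. *Clec7a* was the 1 member of 10 with time intervals on opposite sides of no change, against 6.69% of all genes. The MCS library at ZT14 was within counting error of the control library at ZT2 (control against MCS, -0.10, -0.32 to 0.12), and the MCS library at ZT2 of the control library at ZT14 (-0.08, -0.26 to 0.11).

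For *Cd163* the spread between the time points was wider in MCS than in control. MCS was below control at ZT14 (-0.47, -0.75 to -0.19) and above it at ZT2 (0.30, 0.11 to 0.49), a difference of -0.77 (-1.10 to -0.44). *Clec4n* had a difference of -0.97 (-2.27 to 0.33), which did not pass counting error.

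*Clec4e*, which senses the mycobacterial cord factor, was highest in control at ZT2 with 54.5 CPM (472 reads), and lower in the control ZT14 (38.7 CPM, 352 reads), MCS ZT2 (42.3 CPM, 365 reads) and MCS ZT14 libraries (43.6 CPM, 426 reads). The time ratio was 0.49 (0.29 to 0.70) in control and -0.04 (-0.25 to 0.16) in MCS. The MCS ratio was lower at ZT2 (-0.36, -0.57 to -0.16) and within counting error at ZT14 (0.17, -0.04 to 0.38), a difference of 0.54 (0.25 to 0.82). For its neighbor and partner *Clec4d* both time ratios were above 0, and the difference was 0.22 (0.05 to 0.39), or -0.01 when the libraries were scaled by the large peritoneal macrophage markers.

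*Mrc1* (0.05, -0.12 to 0.21) and *Scarb1* (0.14, -0.19 to 0.47) had differences within counting error, which were -0.18 and -0.09 under that scaling. That of *Marco* (-0.65, -1.31 to 0.01) did not pass counting error and that of *Olr1* (0.94, 0.06 to 1.83) did, and both rested on few reads. None of these differences was tested, since each rests on 1 library per condition.

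**Figure D4:**
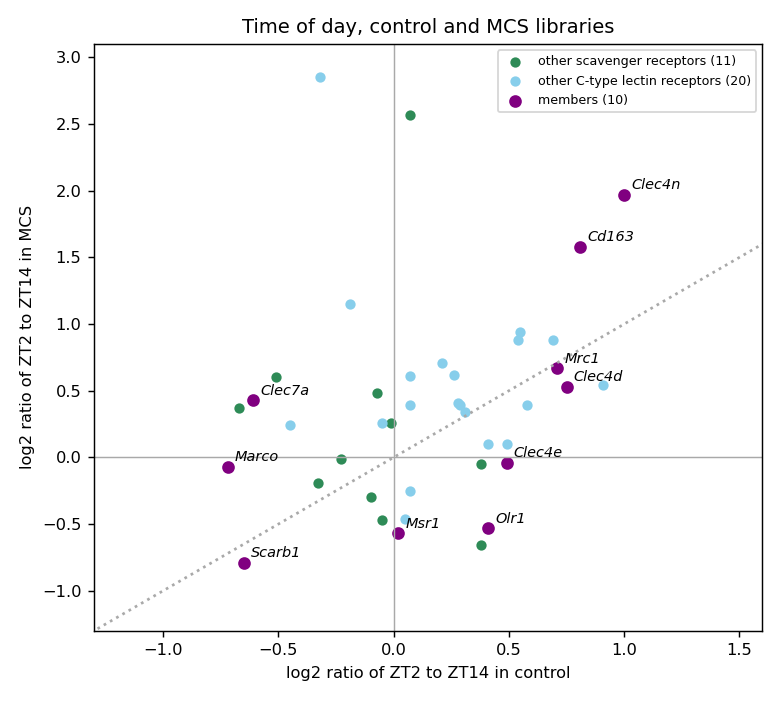
Log2 ratio of ZT2 to ZT14 in control (horizontal) and in MCS (vertical) for the 10 members (purple, named) and for other scavenger (green, 11 genes) and C-type lectin receptors (blue, 20 genes) with a log2 mean CPM above 0. The dotted line marks equal ratios, and *Clec7a*, *Clec4n*, *Cd163* and *Marco* lie above it, *Olr1*, *Msr1* and *Clec4e* below, and *Mrc1*, *Scarb1* and *Clec4d* near it.

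The other genes of the pathway were read from fixed lists. Of 31 further C-type lectin receptor genes, 27 were listed, and at ZT2 against ZT14 in control 20 had a ratio above 0 and 6 below, with a median of 0.26. In MCS 22 were above and 5 below, with a median of 0.39. The edgeR count test called none of the 20 it could test for time (6 had an unadjusted p under 0.05) and none for MCS (1 had). *Cd93*, a receptor with a lectin-like domain, was the most abundant, with 764 CPM at ZT2 and 511 CPM at ZT14 in control and 766 and 585 CPM in MCS. *Clec2d*, a ligand of a natural killer receptor, had 98.7 and 81.2 CPM in control and 97.8 and 73.8 CPM in MCS.

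*Cd209b*, which binds bacterial polysaccharides, followed the order of *Clec7a*, with 53 CPM at ZT2 and 72.3 CPM at ZT14 in control and 63 and 53.4 CPM in MCS. Past the fold criteria were 2 low genes, both higher at ZT2 in MCS. *Clec4g* had 2.09 CPM (18 reads) at ZT2 and 0.205 CPM (2 reads) at ZT14, a log2 ratio of 2.85 (1.29 to 6.5). *Clec9a*, the receptor for dead-cell actin on dendritic cells, had 6.5 and 2.86 CPM, a log2 ratio of 1.15 (0.50 to 1.89).

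Of 16 other scavenger receptor genes 14 were listed, and none of the 11 tested by edgeR was called for time or MCS (none had an unadjusted p under 0.05). *Lrp1*, an endocytic receptor, was the most abundant at 3786, 4047, 3496 and 4315 CPM (control at ZT2 and ZT14, then MCS at ZT2 and ZT14). *Cd36*, the fatty acid and oxidized lipid receptor, had 410, 314, 374 and 386 CPM. *Stab1*, which binds phosphatidylserine on dying cells, had 332, 528, 537 and 416 CPM, so that, as for *Clec7a*, control at ZT14 and MCS at ZT2 were the high libraries. Its log2 ratio of ZT2 to ZT14 was -0.67 (-0.74 to -0.60) in control and 0.37 (0.31 to 0.43) in MCS. *Cd163l1*, a relative of *Cd163*, had 2.32 CPM (20 reads) at ZT2 and 0.307 CPM (3 reads) at ZT14 in MCS, a log2 ratio of 2.57 (1.17 to 5.31).

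The signalling genes behind the lectin receptors showed smaller ratios. All 20 were listed, none passed the fold criteria in any comparison, and the edgeR count test called none for time (1 had an unadjusted p under 0.05) or MCS (none had). The adaptor gene *Fcer1g* had between 62.1 and 65 CPM. *Tyrobp*, the other adaptor, had 359, 350, 337 and 483 CPM, in the order given above, and was highest in MCS at ZT14. *Syk*, the kinase, had 891, 972, 948 and 775 CPM, and *Lyn*, a Src-family kinase, 500, 408, 484 and 467 CPM.

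Genes known to be induced through lectin receptors were mostly low, and 13 of 17 were listed. In MCS against control at ZT14, 12 of the 13 had a ratio below 0, with a median of -1.07. Of the 12368 genes with a log2 mean above 0, 6132 were below 0. The list had 11 such genes, and 5 passed the fold criteria as lower (*Tnf*, *Cxcl1*, *Egr1*, *Egr2* and *Egr3*), against 194 of the 12368. All 5 were highest in the control library at ZT14. *Tnf*, the inflammatory cytokine, had 6.48 CPM there and between 1.97 and 2.66 CPM in the other libraries. *Egr1*, an immediate early transcription factor, had 32.4 CPM in control at ZT14 and between 11.2 and 13.4 CPM in the other libraries. *Egr3*, of the same family, stood at 11 CPM without and 2.35 CPM with MCS at ZT14, and at 6.81 and 6.5 CPM at ZT2.

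At ZT2 the chemokine gene *Cxcl1* stood at 1.15 CPM without and 3.48 CPM with MCS, and *Il1b*, the fever cytokine, 1.73 and 7.08 CPM. Both passed the fold criteria as higher in MCS, as did 182 of 12612 genes. Of the 11 genes tested by edgeR, *Cxcl2* was called for time and fell by 1.23 at ZT2 (edgeR adjusted p = 0.0176), and none was called for MCS (3 had an unadjusted p under 0.05). In control, 6 were past the fold criteria as lower at ZT2 (*Tnf*, *Il1b*, *Cxcl1*, *Cxcl2*, *Ccl3* and *Egr1*), against 148 of 12465 genes. In MCS *Il1b* and *Egr3* were past them as higher, against 496 of 12534 genes. The lower genes in control and those lower with MCS at ZT14 are set against the same control library at ZT14. *Tnf*, *Cxcl1* and *Egr1* are in both counts, which are thus not separate results. *Nfkbia*, the inhibitor of NF-κB, was the most abundant of the list, with 165, 144, 158 and 202 CPM, and *Tnfaip3*, another inhibitor of that pathway, had 29.1, 30, 33.2 and 23 CPM.

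Transcription factors known to act on these receptors were all listed (11 of 11). *Maf*, which acts in macrophages of the resident type, had 141 and 153 CPM at ZT2 (control and MCS) and 98.1 and 84.5 CPM at ZT14. It was the 1 gene of the 10 tested by edgeR that was called for time, and rose by 0.69 at ZT2 (edgeR adjusted p = 0.0187). *Irf8*, a partner of PU.1, had 74.5 and 85.3 CPM at ZT2 and 141 and 106 CPM at ZT14, which did not pass (edgeR adjusted p = 0.0558). *Stat6*, which acts downstream of interleukin-4, had 239 and 232 CPM at ZT2 and 271 and 262 CPM at ZT14, and *Nr3c1*, the glucocorticoid receptor, 196 and 205 CPM and 229 and 216 CPM. *Spi1*, which encodes PU.1, had 136 and 149 CPM at ZT2 and 178 and 181 CPM at ZT14 (edgeR adjusted p = 0.529). *Maf*, *Irf8*, *Spi1* and the adaptor gene *Fcer1g* are outside the rule for named genes and were chosen after their values were seen. For MCS no gene of the list was called by edgeR (1 had an unadjusted p under 0.05). The nuclear receptor genes *Pparg* (0.614 to 1.73 CPM) and *Nr1h3* (2.43 to 5.27 CPM) passed the fold criteria once each, *Pparg* as lower in MCS at ZT2 and *Nr1h3* as lower at ZT2 in control. The ratio of *Pparg* rested on 6 reads in MCS and 15 in control and was within counting error. That of *Nr1h3* rested on 21 reads at ZT2 and 48 at ZT14.

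*Mrc1* and *Cd163* are also read as markers of alternative activation. Of the 10 genes of that list all were listed, none passed the fold criteria in any comparison, and the edgeR count test called none of the 7 tested for time (2 had an unadjusted p under 0.05) or MCS (none had). *Retnla* had 385, 322, 408 and 239 CPM, *Ccl24* 191, 201, 175 and 186 CPM, and *Arg1*, the arginine-degrading enzyme, 150, 123, 153 and 171 CPM.

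The sorted cells carried the markers of macrophages. The 7 macrophage markers summed to between 24656 and 27221 CPM, the 10 large peritoneal macrophage markers to between 12767 and 15103 CPM and the 10 small peritoneal macrophage markers to between 4272 and 5293 CPM, with none at 0. All 7 macrophage markers were higher with MCS at ZT14 and lower at ZT2 (log2 ratios of the sums 0.14 and -0.05). Of the 10 large peritoneal macrophage markers, 7 were higher with MCS at ZT14 and 8 lower at ZT2 (0.15 and -0.16). Of the 10 small peritoneal macrophage markers, 4 were higher with MCS at ZT14 and 9 at ZT2 (-0.03 and 0.19). Of all these markers edgeR called none for MCS and 1 for time, *Mertk*, an uptake receptor for dying cells. *Mertk* rose by 0.79 at ZT2 (edgeR adjusted p = 0.0056). Markers of other cells were present too. The 9 mast cell markers summed to 1964 CPM (control ZT2), 1256 CPM (control ZT14), 2472 CPM (MCS ZT2) and 1067 CPM (MCS ZT14). This is the order of libraries of *Cd163* and *Clec4n*. The sums of the small peritoneal macrophage markers (4647, 4348, 5293 and 4272 CPM) and dendritic cell markers (87.3, 82.4, 99.8 and 66.1 CPM) stood in that order too. All 9 mast cell markers were higher at ZT2 in control (median log2 ratio 0.69) and in MCS (1.20), and 6 of the 9 were called for time by edgeR. The 5 natural killer cell markers summed to 33.3, 18.5, 45.5 and 18.5 CPM, and 4 of them were called higher at ZT2.

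Of 12 neutrophil markers 11 were listed (*Ly6g* was not), and they summed to 148, 125, 275 and 128 CPM. All 11 were higher in MCS at ZT2 than in control at ZT2 (median log2 ratio 2.31) and than in MCS at ZT14 (2.77), and *Camp*, *Ngp*, *Mpo* and *Elane* were at 0 in MCS at ZT14. *Clec4n*, *Clec4d*, *Clec4e*, *Clec7a* and *Il1b* are known in neutrophils as well, and in MCS against control at ZT2 the log2 ratio was 0.53 (0.32 to 0.74) for *Clec7a*, 0.08 (-0.62 to 0.80) for *Clec4n*, 0.02 (-0.09 to 0.13) for *Clec4d*, -0.36 (-0.57 to -0.16) for *Clec4e* and 1.97 (1.20 to 2.95) for *Il1b*. B cell markers summed to between 1011 and 1471 CPM and dendritic cell markers to between 66.1 and 99.8 CPM.

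Other lists were also higher at ZT2, the direction of *Cd163*, *Mrc1*, *Clec4d* and *Clec4n*. Of the 10 small peritoneal macrophage markers 8 were higher at ZT2 in control and 9 in MCS, with log2 ratios of their sums of 0.10 and 0.31. All 6 mesothelial markers were higher at ZT2 in both (log2 ratios of the sums 1.51 in control and 1.20 in MCS), at sums of only 3.41 to 11 CPM. Of the 5 fibroblast markers listed, 4 were higher at ZT2 in control and 5 in MCS (1.93 and 1.05), at sums of 4.06 to 19.7 CPM, with *Dcn* called for time by edgeR and *Pdgfra* at 0 in 3 libraries. The 5 T cell markers listed, at 17.5 to 33.1 CPM, were higher at ZT2 for 5 genes in control and 4 in MCS (0.62 and 0.58). The sums of the mesothelial, fibroblast and T cell markers stood in the order of libraries of *Mrc1* and *Clec4d*. That order was MCS at ZT2, control at ZT2, MCS at ZT14 and control at ZT14, from high to low. What such cells contributed to these genes was not tested.

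The red blood cell markers listed summed to 3.23 and 1.32 CPM in control (ZT2 and ZT14) and to 36.7 and 112 CPM in MCS. Of the 4 tested by edgeR, 3 were called as higher for MCS, *Hba-a1* (log2 ratio 4.55), *Hba-a2* (10.83) and *Hbb-b1* (5.67). *Hba-a2* had reads in MCS at ZT14 alone, and *Alas2* (0.75) was not called. Of 8 eosinophil markers 4 were listed, and they summed to between 58.7 and 90.1 CPM. For MCS, edgeR called *Siglecf* (log2 ratio 3.27, edgeR adjusted p = 1.78e-05) and *Ccr3* (2.70, edgeR adjusted p = 0.000241) as higher, while *Ear2* (0.08) and *Il5ra* (-0.29) did not pass (edgeR adjusted p = 1 for both). What these cells contributed to the values of the receptors was not tested.

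**Figure D5:**
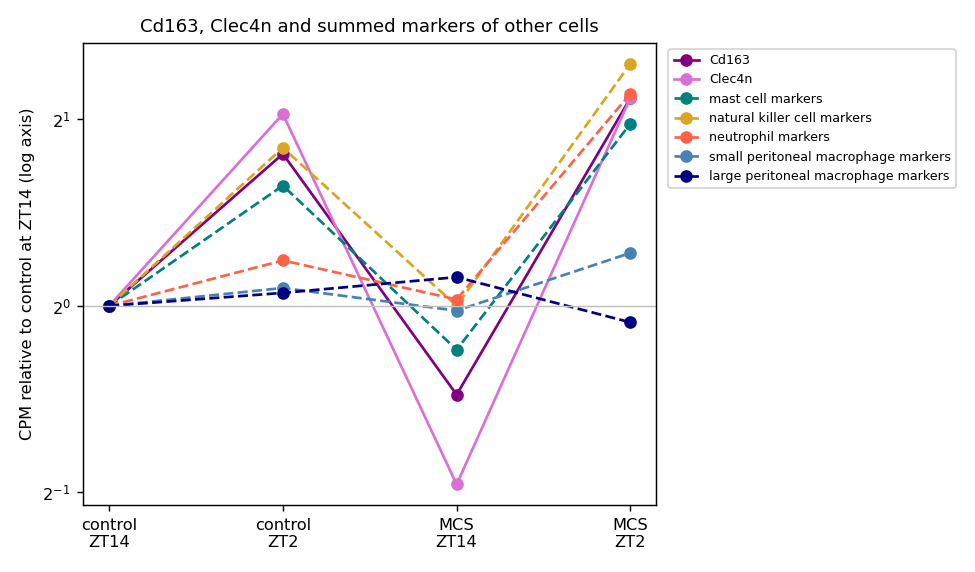
CPM of *Cd163* and *Clec4n* (solid lines) and summed CPM of markers of other cells and of macrophage types (dashed lines) in each library, relative to control at ZT14 (log axis, lines only join points of a series). *Cd163*, *Clec4n* and the mast cell, natural killer cell, neutrophil and small peritoneal macrophage markers are higher in both ZT2 libraries, while the large peritoneal macrophage markers span between 12767 and 15103 CPM.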

How the data were processed

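RNA of sorted peritoneal macrophages was analysed in 4 libraries, grouped by the labels into control and MCS at ZT2 and ZT14. The authors used Trimmomatic 0.38 for trimming and RSEM 1.3.0 with Bowtie2 for counting, and deposited CPM values normalized by edgeR. The submitters' processing notes name the build mm10, and the annotation version was not given in the sources used here. Whole reads were recovered by dividing each column by the worth of 1 read, and 100% of the values were whole within 0.05 read. Since RSEM gives estimates, any rounding by the authors is included.

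Log2 ratios were taken after adding 0.1 CPM, which understates the change of low genes. Intervals at 95% were exact (Clopper-Pearson), conditional on the reads of both libraries. Those of a difference of ratios were approximate. A gene was past the fold criteria when its log2 ratio lay beyond 1 or -1 and its log2 mean CPM exceeded 0. The count test was edgeR's quasi-likelihood test with Benjamini-Hochberg adjustment over 12404 genes with at least 40 reads in total (common dispersion 0.0196), and its threshold was an adjusted p of 0.05. Ratios and count test were tested on simulated data.

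The 10 genes, the lists and the tests were chosen with earlier results of these data known. Beside the 10 genes, the rule named the 3 most abundant genes of each list and those past the fold criteria. A gene that this rule named is not reported here. Positions and transcripts came from GENCODE for GRCm38, the same build as mm10, and near-identical transcripts were searched with blastn 2.17.0. Alternatives were other pseudocounts, thresholds and scalings. Python 3.11.15, pandas 2.3.3, scipy 1.17.1, R 4.3.3 and edgeR 4.0.16 were used.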

Additional observations from a re-analysis of the deposited data

Results flagged for a closer look

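Among the genes named in the report, each gene here had MCS ratios at ZT14 and ZT2 on opposite sides of 0, or time ratios in control and MCS on opposite sides of 0, beyond counting error in both. Each value is the log2 MCS ratio at ZT14 minus that at ZT2, with its approximate 95% counting interval, and equals the log2 time ratio in control minus that in MCS. With 1 library per condition the differences were not tested.

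Among the members, the difference was 0.58 for *Msr1* (0.50 to 0.67), -0.77 for *Cd163* (-1.10 to -0.44) and -1.04 for *Clec7a* (-1.32 to -0.76). *Clec7a* was on opposite sides in both pairs of comparisons, *Msr1* and *Cd163* in the MCS pair alone.

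Among other scavenger receptors it was -1.04 for *Stab1* (-1.13 to -0.95), 0.43 for *Cd36* (0.33 to 0.53) and 0.21 for *Lrp1* (0.18 to 0.24). Of the scavenger receptors outside the naming rule, added after their values were seen, it was 1.04 for *Cd5l* (0.94 to 1.14), in both pairs and opposite to *Stab1*, and -1.11 for *Scarf2* (-1.63 to -0.59). Further listed genes outside the rule are not given here. Among other lectin receptors it was -0.69 for *Cd209b* (-0.93 to -0.44). *Stab1* and *Cd209b* were on opposite sides in both pairs, as *Clec7a* was.

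Among signalling genes it was 0.56 for *Tyrobp* (0.46 to 0.65) and -0.42 for *Syk* (-0.48 to -0.35). Among induced genes it was -2.82 for *Il1b* (-3.95 to -1.70), -2.63 for *Cxcl1* (-3.82 to -1.45), -1.44 for *Egr2* (-2.19 to -0.69), -2.11 for *Egr3* (-2.95 to -1.27) and 0.55 for *Nfkbia* (0.41 to 0.70). Among alternative activation genes it was 0.45 for *Arg1* (0.29 to 0.60) and -0.52 for *Retnla* (-0.62 to -0.41). *Il1b* and *Cxcl1* rested on between 10 and 74 reads per library.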

How the results depend on the processing

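No paired analysis was possible because each condition has 1 library and the libraries carry no replicate numbers. For the same reason no replicate could be left out. Of the counts over the members, 29 stayed within 1.5 times and 7 moved. The 20 medians stayed between the median lower and upper bounds of the members' counting intervals, but scaling by the large peritoneal macrophage markers took them from 0.09 to 0.25 (MCS at ZT2), 0.17 to 0.10 (MCS at ZT14), 0.45 to 0.36 (time in control) and 0.19 to 0.23 (time in MCS). With an absolute log2 ratio above 0.5 as the limit, 2 members passed for MCS at ZT14, 2 for MCS at ZT2, 7 for time in control and 7 for time in MCS. With a pseudocount of 0.01 CPM 1 member passed for time in control. For time in MCS, 0 members passed a limit of 2, and 1 passed with a log2 mean above 3. Of the single values of members, 265 kept within counting error, 21 moved and 4 reversed. All that moved or reversed came from the marker scaling or the additive edgeR model. The other pseudocounts and the scalings by all genes moved none. Those scalings had little room to move a value, since the median ratio of all genes was already between -0.00 and 0.01. The additive edgeR model gave -0.01 for *Msr1* with MCS at ZT14, -0.06 for *Cd163* with MCS at ZT2 and -0.09 for *Clec7a* with time in MCS, by its construction, since it fits 1 effect for both pairs. The same marker scaling, chosen after the data were seen, gave -0.01 for the difference of *Clec4d*, -0.18 for that of *Mrc1*, -0.09 for that of *Scarb1* and 0.36 for that of *Msr1*, and the cause was not tested. It gave -0.15 for *Msr1* and 0.28 for *Mrc1* with MCS at ZT2. With at most 53 reads per library for *Olr1* and 37 for *Clec4n*, smaller differences of these genes were not detectable at this depth.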
